A study of Mus musculus with 18 samples.

Results

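The potassium channel genes described here are the protein-coding mouse genes whose symbols start with Kcn. Of 94 such symbols 2, Kcne2 and Kcnj8, were left out by the rule that defined the group, and a further 10 (Kcna7, Kcna10, Kcne1, Kcne3, Kcnj1, Kcnk7, Kcnk15, Kcnk16, Kcnmb3 and Kcnv2) never reached the minimum of 10 counts in a library, which left 82 members among the 17545 genes tested. They were measured by RNA sequencing of whole pieces of frontal cortex, striatum and hippocampus from adult Pcm1-/- mice and their wild-type (WT) littermates, with 3 libraries for each genotype in each region and 18 libraries in all. Pcm1 encodes a scaffold protein of the centriolar satellites, the granules that surround the centrosome and the base of the primary cilium. Both genotypes are labelled as C57 Bl6J animals, and the labels name no treatment for either. The mutation is a gene trap present in every cell from conception, made in E14Tg2a.4 embryonic stem cells, a line of 129 origin, and backcrossed for a limited number of generations, so that alleles linked to Pcm1 on chromosome 8 can still be of 129 origin in the mutants. Kcnu1, Kcnn1, Kcng4 and Kcnk1 are the members on that chromosome.

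Potassium channels let potassium leave or enter a cell along its electrochemical gradient, and so set the resting potential, the threshold and the length and frequency of action potentials. The 82 members fall into 6 classes and 21 symbol prefixes. The voltage-gated pore-forming subunits are the largest class, with 28 members in the Kcna, Kcnb, Kcnc, Kcnd, Kcnh and Kcnq subfamilies, and open on depolarisation. Another 9 members (Kcnf, Kcng, Kcns and Kcnv) are electrically silent subunits, which form no channel alone and alter Kcnb channels when built into them, and 13 (Kcnab, Kcne, Kcnip, Kcnmb and others) are auxiliary subunits. Inward rectifiers (Kcnj, 13 members) hold the membrane near the potassium equilibrium potential or open on G protein signalling, 2-pore domain channels (Kcnk, 11 members) carry leak currents, and 8 members (Kcnma, Kcnn, Kcnt and Kcnu) are activated by intracellular calcium or sodium or belong to that family. In the brain these subunits differ between cell types, as Kcnc channels do in fast-spiking interneurons and Kcnj10 in astrocytes.

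Counts on genes ranged from 24950537 to 33405081 per library (median 27844740). Levels are given in CPM, the counts of a gene relative to the total of its library after scaling by the trimmed mean of M values. Pcm1 itself, the targeted gene, lay between 119.9 and 172 CPM in the 9 WT libraries and between 11.8 and 17.6 CPM in the 9 mutant libraries, so every label held for this gene. Ppp1r1b, a marker of striatal projection neurons, was 2203 to 2583 CPM in the striatum and at most 103.4 CPM elsewhere, and Prox1, a marker of dentate granule cells, was 127.6 to 200.2 CPM in the hippocampus and at most 47.6 CPM elsewhere. Libraries of 1 group differed in choroid plexus transcripts. The summed level of 10 choroid plexus markers was 6203 CPM in WT striatum replicate 3, against 55.8 and 58.9 CPM in the other WT striatum libraries and 35.5 to 175.0 CPM in the mutant striatum. The counts of region calls and some, but not all, single striatal values are also given without that library. In the hippocampus the sum was 6488 CPM in WT replicate 1 against 2451 and 2230 CPM in the other WT libraries, and 235.6 CPM in mutant replicate 2 against 2441 and 4309 CPM in the other mutant libraries. All 3 WT striatum libraries were sequenced on 1 lane and all mutant striatum libraries on other lanes, so that in this region the effect of lane cannot be told apart from that of genotype. In whole tissue, fewer cells of a type and less RNA per cell cannot be told apart, and this holds for every level that follows.

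The start sites of the genes on which the genotype and region comparisons turn are shown first, as 250 bases before and 50 bases after the annotated start. Kcnj3, Kcnd2, Kcnc1, Kcnj4 and Kcnk12 were higher in the mutant frontal cortex, as was Kcna1, and Kcna5 and Kcnj6 were among the members with the largest differences between regions in the WT mice. Sequences are from RefSeq on GRCm38.p6, 5′ to 3′ on the strand of the gene, and Kcnj6 has 2 annotated starts. Capitals mark each GC box, the 6 letters GGGCGG or their reverse complement CCGCCC, a motif bound by Sp family factors.
Kcnj3, chr2:55435720-55436019 (+): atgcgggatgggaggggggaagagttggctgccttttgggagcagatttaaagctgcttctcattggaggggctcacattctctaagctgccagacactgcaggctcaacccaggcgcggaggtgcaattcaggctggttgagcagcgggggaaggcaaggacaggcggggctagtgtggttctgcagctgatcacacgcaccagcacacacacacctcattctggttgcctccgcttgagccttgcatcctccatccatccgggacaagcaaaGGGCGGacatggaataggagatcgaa
Kcnd2, chr6:21215096-21215395 (+): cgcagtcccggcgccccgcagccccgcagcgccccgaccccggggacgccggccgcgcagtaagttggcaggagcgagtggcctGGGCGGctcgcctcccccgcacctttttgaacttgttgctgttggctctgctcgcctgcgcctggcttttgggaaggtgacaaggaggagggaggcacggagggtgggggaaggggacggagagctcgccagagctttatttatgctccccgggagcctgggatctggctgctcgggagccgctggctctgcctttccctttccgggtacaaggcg
Kcnc1, chr7:46396218-46396517 (+): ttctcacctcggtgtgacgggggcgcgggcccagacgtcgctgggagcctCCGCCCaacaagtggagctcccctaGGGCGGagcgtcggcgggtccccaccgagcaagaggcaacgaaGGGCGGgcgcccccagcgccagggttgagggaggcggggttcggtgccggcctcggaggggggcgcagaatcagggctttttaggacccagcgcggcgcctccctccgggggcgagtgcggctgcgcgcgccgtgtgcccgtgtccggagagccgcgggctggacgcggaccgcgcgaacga
Kcnj4, chr15:79505192-79505491 (-): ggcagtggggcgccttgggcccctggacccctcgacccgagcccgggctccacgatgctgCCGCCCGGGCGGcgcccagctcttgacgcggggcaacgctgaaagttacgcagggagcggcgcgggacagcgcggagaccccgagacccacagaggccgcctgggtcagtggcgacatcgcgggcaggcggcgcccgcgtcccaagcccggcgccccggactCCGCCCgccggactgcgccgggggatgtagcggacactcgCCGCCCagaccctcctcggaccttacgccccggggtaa
Kcnk12, chr17:87797945-87798244 (-): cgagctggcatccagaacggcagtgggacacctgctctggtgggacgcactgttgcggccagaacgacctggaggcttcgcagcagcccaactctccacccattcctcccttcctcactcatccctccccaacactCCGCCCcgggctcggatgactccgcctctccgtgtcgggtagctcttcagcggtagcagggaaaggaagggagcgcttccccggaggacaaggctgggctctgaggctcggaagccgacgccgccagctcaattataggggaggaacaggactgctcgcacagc
Kcna5, chr6:126535506-126535805 (-): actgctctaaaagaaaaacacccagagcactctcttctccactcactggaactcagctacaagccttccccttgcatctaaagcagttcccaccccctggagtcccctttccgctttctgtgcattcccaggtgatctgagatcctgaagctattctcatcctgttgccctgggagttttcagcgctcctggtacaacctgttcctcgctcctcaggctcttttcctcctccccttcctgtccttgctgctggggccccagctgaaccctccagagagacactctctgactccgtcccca
Kcnj6, chr16:94997647-94997946 (-): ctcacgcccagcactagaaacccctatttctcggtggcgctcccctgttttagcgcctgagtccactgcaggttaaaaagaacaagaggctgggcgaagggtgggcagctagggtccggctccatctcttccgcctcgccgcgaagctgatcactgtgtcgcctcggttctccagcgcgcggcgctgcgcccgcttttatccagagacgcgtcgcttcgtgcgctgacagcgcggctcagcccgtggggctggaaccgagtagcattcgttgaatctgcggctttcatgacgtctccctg
Kcnj6, chr16:94856641-94856940 (-): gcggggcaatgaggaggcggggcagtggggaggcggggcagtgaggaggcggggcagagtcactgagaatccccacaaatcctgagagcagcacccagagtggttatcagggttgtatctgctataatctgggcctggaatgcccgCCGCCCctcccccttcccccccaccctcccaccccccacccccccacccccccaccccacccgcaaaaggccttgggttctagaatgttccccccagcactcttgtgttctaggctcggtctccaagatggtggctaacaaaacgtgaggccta

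The Kcnj4 window held 4 GC boxes and the Kcnc1 window 3, with GC contents of 76.0% and 74.7%. The windows of Kcnd2, Kcnj3 and Kcnk12 held 1 each at GC contents of 68.7%, 57.7% and 64.3%. Kcna5, with 55.0% GC and 4 CG dinucleotides, held none, and of the Kcnj6 starts 1 held a GC box and the other did not. A TATAAA box was in none of the 8 windows. Of all 32851 RefSeq promoters of this length, 35.7% held a GC box on either strand, and of the 82 promoters that belong to 59 matched members 41 did. The median GC content was 52.7% over all promoters and 59.7% over those of the members.

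In the WT mice potassium channel genes together took 0.636% of counts from the frontal cortex, 0.594% from the striatum and 0.549% from the hippocampus. Their summed level was 6358 ± 107 CPM (SD, n = 3) in the frontal cortex, 5945 ± 274 CPM in the striatum and 5494 ± 243 CPM in the hippocampus. Voltage-gated pore-forming subunits made up the greatest part in each region, with 3201 ± 53.0, 2809 ± 104.3 and 2608 ± 132 CPM, and auxiliary subunits came next with 1180 ± 97.3, 1492 ± 125 and 1386 ± 107 CPM. Inward rectifiers summed to 914 ± 56.1 CPM in the frontal cortex, 730.0 ± 15.4 CPM in the striatum and 790.3 ± 84.1 CPM in the hippocampus. Electrically silent subunits summed to 441 ± 27.7 CPM in the frontal cortex against 242 ± 18.3 CPM in the striatum and 234 ± 19.2 CPM in the hippocampus. The frontal cortex thus had the highest mean sums for pore-forming, silent and inward rectifier subunits and the lowest for auxiliary subunits. For inward rectifiers it overlapped the hippocampus (849.8 to 953.8 and 729.4 to 886.2 CPM). Calcium- and sodium-activated channels were also highest there, at 349.3 ± 24.0 CPM against 298.6 ± 17.9 CPM in the striatum and 246.3 ± 27.5 CPM in the hippocampus. Most members were detected in every region: 72 of 82 exceeded 1 CPM on average in the WT frontal cortex and 75 in each of the other regions, while 27, 18 and 15 exceeded 100 CPM in the frontal cortex, striatum and hippocampus. Kcnj15, Kcnk5, Kcnk18, Kcnn4, Kcnq1 and Kcnrg averaged over 1 CPM in no group.

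Between genes, levels were compared per kilobase of exon (CPM per kb, mean ± SD, n = 3). Kcnab2, a beta subunit of Kcna channels, led in the WT frontal cortex at 104 ± 12.1 CPM per kb and in the WT hippocampus at 143 ± 14.8 CPM per kb. In the WT striatum the order began with Kcnj4, a strong inward rectifier of the Kir2 subfamily, at 104 ± 14.8 CPM per kb and Kcnip2, a calcium-binding subunit of Kcnd channels, at 99.2 ± 17.9 CPM per kb, which did not differ beyond their spread. Kcna1, the low-threshold axonal channel subunit mutated in episodic ataxia, was high throughout at 61.3 ± 4.10, 72.1 ± 4.01 and 66.5 ± 4.54 CPM per kb in the frontal cortex, striatum and hippocampus. Kcnj10, the astrocytic inward rectifier, reached 52.1 ± 12.03 CPM per kb in the frontal cortex and 63.3 ± 12.8 CPM per kb in the hippocampus, and Kcnk1, a leak channel subunit, 46.7 ± 7.85 and 50.8 ± 7.56 CPM per kb. In the striatum Kcnd2, which carries the dendritic A-type current, stood at 65.5 ± 5.58 CPM per kb and Kcnab1, the beta subunit that makes Kcna channels inactivate, at 65.7 ± 5.49 CPM per kb. The striatal order depended on the length used. Per kilobase of the longest protein-coding transcript Kcnab1 came first there at 174 ± 14.5 CPM per kb, before Kcnip2 at 144 ± 26.0 and Kcnj4 at 104 ± 14.8, while Kcnab2 led the frontal cortex (148.5 ± 17.2) and hippocampus (203.8 ± 21.1) with either length.

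In the WT mice, which gene led its subfamily depended on the region in 7 of the 16 subfamilies with several members, measured as the share of the subfamily's CPM per kb of exon (mean ± SD, n = 3), and in 6 of these 7 also per kilobase of the longest protein-coding transcript. Among the beta subunits Kcnab2 held 76.3 ± 3.0% in the WT frontal cortex and 81.9 ± 1.7% in the WT hippocampus, whereas Kcnab1 led in the WT striatum with 49.2 ± 2.0%. Of the Kcnd-binding Kcnip genes Kcnip2 led in the striatum with 64.7 ± 4.3% and the hippocampus with 41.5 ± 2.2%. In the frontal cortex Kcnip3 held 36.4 ± 1.3% and Kcnip2 34.3%, and by transcript length Kcnip2 led there too, with 34.2 ± 2.3% against 32.5% for Kcnip3. The inward rectifier share was greatest for Kcnj4 in the frontal cortex (29.4 ± 3.8%) and striatum (49.7 ± 7.3%) and for Kcnj10 in the hippocampus (35.0 ± 3.2%). In the mutant hippocampus Kcnj10 had no such lead, with 24.8% against 24.9 ± 3.3% for Kcnj4. Sodium-activated channels were split between Kcnt1, which held 63.5 ± 3.9% (frontal cortex) and 92.3 ± 0.63% (striatum), and Kcnt2, which held 62.0 ± 2.2% in the hippocampus. The leaders also changed among the silent subunits, from Kcng1 (49.5 ± 3.5% and 70.7 ± 6.8%) in the frontal cortex and striatum to Kcng2 (40.8 ± 2.7%) in the hippocampus, and from Kcns1 (46.3 ± 7.1%) in the frontal cortex to Kcns2 in the striatum (66.4 ± 3.7%) and hippocampus (60.4 ± 4.4%). Among the small-conductance calcium-activated channels Kcnn2 led in the hippocampus (60.7 ± 3.0%) with either length, whereas the leaders elsewhere changed with the length, from Kcnn1 (47.5 ± 1.0%) to Kcnn2 (54.0 ± 0.87%) in the frontal cortex and from Kcnn2 (40.5 ± 1.8%) to Kcnn3 (41.2 ± 1.7%) in the striatum. Other subfamilies kept 1 leader in all 3 regions, such as Kcna1, Kcnd2, Kcnh3, Kcnk1 and Kcnmb4.

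**Figure D1:**
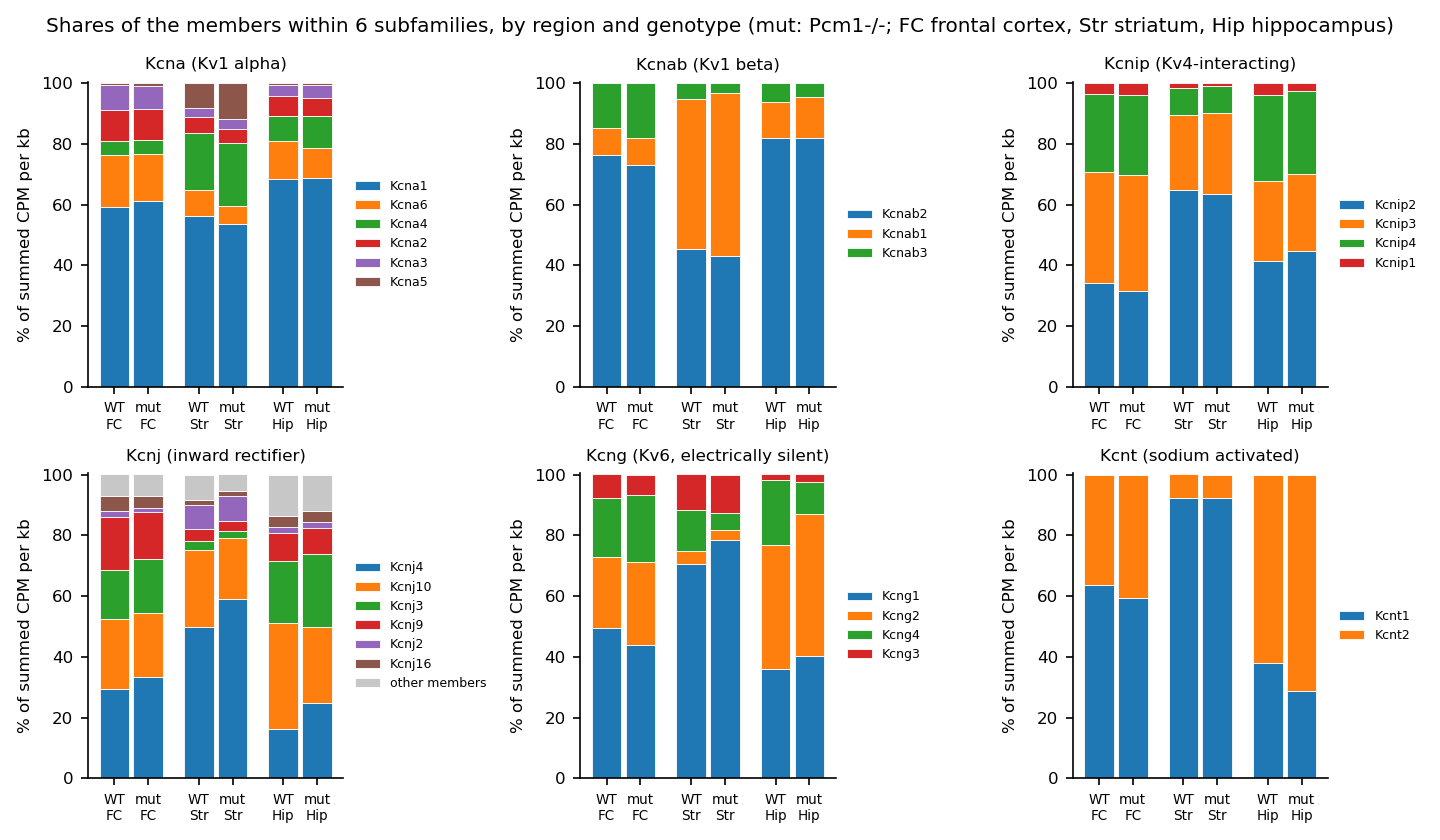
Share of each subfamily's level per kilobase of exon (percent of CPM per kb, vertical axis) held by its members in the 6 groups, as means of 3 libraries, for Kcna, Kcnab, Kcnip, Kcnj, Kcng and Kcnt. Kcnab1 is the leading beta subunit only in the striatal groups (49.2% in WT), and Kcnt1 gives way to Kcnt2 in the hippocampus (62.0% in WT).

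To ask how far the channel complement differs between regions, the 9 WT libraries were compared in 1 fit, with the quasi-likelihood F-test of edgeR and Benjamini-Hochberg adjusted p-values over all 17545 genes. A gene was called at an adjusted p under 0.05. Of the 82 members 20 were higher and 38 lower in the striatum than in the frontal cortex, where 20.6% and 20.9% of all genes were called higher and lower. At a fold of at least 2 the counts were 13 and 27 of the members, against 8.33% and 8.29% of all genes. Between hippocampus and frontal cortex 14 members were higher and 32 lower in the hippocampus (14.5% and 15.3% of all genes), 5 and 19 of them by at least 2-fold (6.62% and 4.59%). Striatum and hippocampus differed in 25 members higher and 22 lower in the striatum (14.4% and 14.8% of all genes), 15 in each direction by at least 2-fold (5.35% higher and 6.69% lower). The median size of the log2 difference was 1.05 over the members and 0.37 over all genes between striatum and frontal cortex, 0.67 and 0.29 between hippocampus and frontal cortex, and 0.85 and 0.28 between striatum and hippocampus. In each comparison the share of members called was above the share of all genes, and they had the larger median difference.

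Each member was next placed by the region in which it was called higher than in both others. The frontal cortex was the highest region for 22 members, the striatum for 14 and the hippocampus for 6, where over all genes the shares were 9.52%, 9.23% and 4.61%, and the other members were either called in no pair (15) or in pairs that single out no region. The striatum was the lowest region for 21 members, the hippocampus for 14 and the frontal cortex for 7, against 10.2%, 4.87% and 8.53% of all genes. Without WT striatum replicate 3, the library with choroid plexus transcripts, 58, 47 and 54 members were called in the 3 comparisons, against 58, 46 and 47 with it, and 6562, 5430 and 5153 of all genes against 7289, 5230 and 5126.

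**Figure D2:**
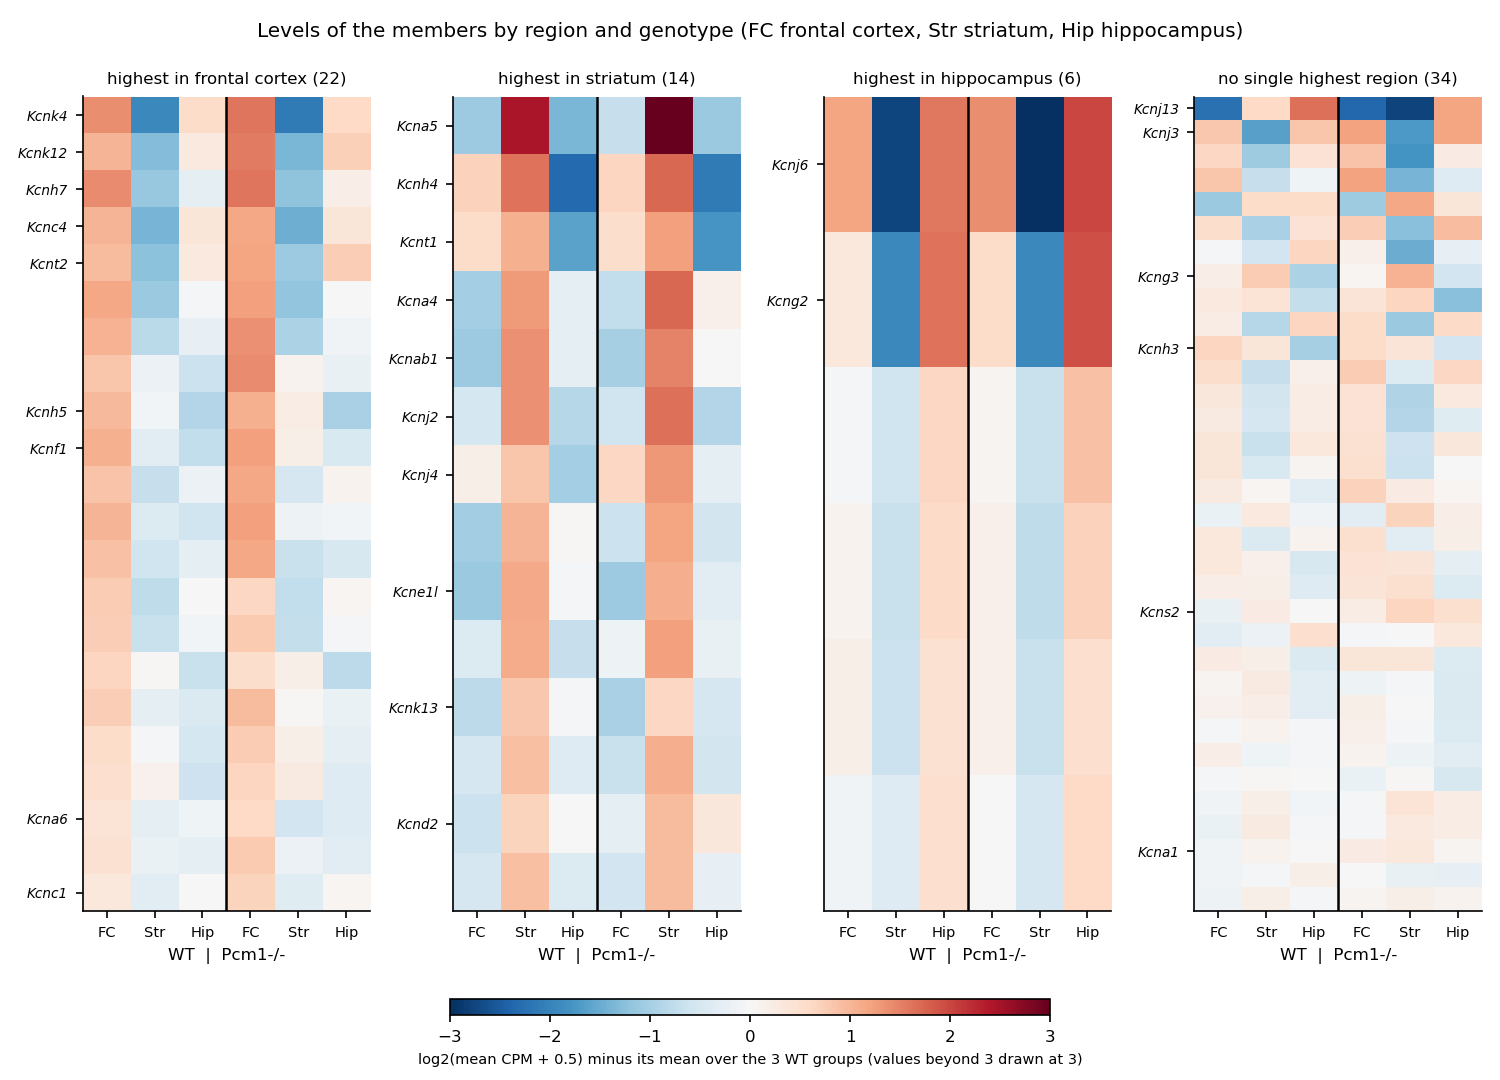
Level of each of the 76 members that exceed 1 CPM in some group, as log2(mean CPM + 0.5) of the group minus the mean over the 3 WT groups (colour, cut at 3 in each direction), in the 6 groups (columns), with members arranged by their highest WT region and labels on genes described in the text. The panels hold 22 members highest in the frontal cortex, 14 in the striatum, 6 in the hippocampus and 34 with no single highest region, and the WT and mutant columns of a region show the same colours for most members.

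Voltage-gated pore-forming subunits were mostly lower outside the frontal cortex, with 16 of 28 lower and 6 higher in the striatum and 15 lower and 3 higher in the hippocampus. The called member with the greatest excess over the frontal cortex in the striatum was Kcna5, a delayed rectifier subunit, with 33.3, 28.1 and 28.4 CPM in the WT striatum, 1.47, 1.52 and 3.32 CPM in the WT frontal cortex and 1.39, 1.65 and 1.95 CPM in the WT hippocampus. Every striatal library lay far above the others, and the log2 difference was 3.83 ± 0.28 (SE) from the frontal cortex and 4.17 ± 0.29 from the hippocampus. Kcna4, an inactivating A-type subunit of axons, followed with 121, 117 and 108 CPM in the striatum, 21.1, 21.7 and 26.4 CPM in the frontal cortex and 38.4, 42.1 and 37.2 CPM in the hippocampus. Its log2 difference was 2.32 ± 0.10 between striatum and frontal cortex and 0.76 ± 0.10 between hippocampus and frontal cortex, with no overlap in either. The ether-a-go-go related subunits went the other way in the hippocampus, where 6 of 8 Kcnh genes were lower than in the frontal cortex. Kcnh4 measured 1.77, 2.29 and 1.44 CPM in the hippocampus against 17.5, 20.4 and 17.6 CPM in the frontal cortex and 36.9, 39.2 and 31.9 CPM in the striatum. That is a log2 difference of -3.34 ± 0.16 from the frontal cortex and of 4.30 ± 0.17 for striatum over hippocampus. Kcnh5 (-1.91), Kcnh7 (-1.71) and Kcnh3 (-1.66) also fell in log2 from frontal cortex to hippocampus, and Kcnh7 was lower in the striatum too, at -2.58. Kcnc4, of the subfamily whose channels repolarise fast-spiking cells, gave 12.2, 14.9 and 14.1 CPM in the striatum and 49.6, 49.5 and 44.1 CPM in the hippocampus, without overlap, a log2 difference of -1.79 ± 0.09.

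Among the 9 silent subunits 5 were lower and 2 higher in the striatum than in the frontal cortex. Kcng2 was low in the striatum, with 2.32, 1.87 and 1.33 CPM against 11.0, 8.29 and 12.4 CPM in the frontal cortex and 26.1, 28.5 and 27.2 CPM in the hippocampus. The 3 regions did not overlap, and the log2 differences were -2.52 ± 0.21 for striatum over frontal cortex, -3.88 ± 0.21 for striatum over hippocampus and 1.36 ± 0.18 for hippocampus over frontal cortex. Kcng3 was lowest in the hippocampus, at 1.46, 1.69 and 1.21 CPM against 7.06, 4.86 and 5.83 CPM in the striatum, a log2 difference of 2.03 ± 0.26 without overlap. Kcnf1, whose product assembles with Kcnb subunits, was 164, 145 and 182 CPM in the frontal cortex and 45.3, 45.2 and 47.2 CPM in the hippocampus. Its groups were well apart, with a log2 difference of -1.84 ± 0.10.

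Auxiliary subunits showed no common direction, with 4 higher and 5 lower in the striatum than in the frontal cortex. Kcnab1 had 617, 551 and 525 CPM in the striatum, 96.7, 98.2 and 113 CPM in the frontal cortex and 158, 193 and 189 CPM in the hippocampus. The order of striatum, hippocampus and frontal cortex held in every library, with log2 differences from the frontal cortex of 2.46 ± 0.11 and 0.81 ± 0.11. Kcne1l, a small single-span subunit of the Kcne family, ran 9.45, 12.2 and 8.69 CPM in the striatum, 5.24, 4.16 and 3.23 CPM in the hippocampus and 1.61, 1.22 and 2.40 CPM in the frontal cortex. It kept the same order as Kcnab1, with log2 differences from the frontal cortex of 2.54 ± 0.27 and 1.26 ± 0.27.

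Among the inward rectifiers Kcnj6 and Kcnj3 were lowest in the striatum, and Kcnj2 and Kcnj4 were highest there. Kcnj6, a G protein-gated subunit that opens on signalling from receptors such as GABA-B, measured 1.47, 1.84 and 2.09 CPM in the WT striatum, 30.4, 31.9 and 40.7 CPM in the WT frontal cortex and 46.1, 44.6 and 46.0 CPM in the WT hippocampus. The striatal libraries were far below all others, with log2 differences of -4.25 ± 0.16 from the frontal cortex and -4.65 ± 0.16 from the hippocampus. Its partner Kcnj3, the other main neuronal G protein-gated subunit, was 30.7, 29.2 and 41.2 CPM in the striatum, 178, 183 and 201 CPM in the frontal cortex and 194, 189.9 and 181 CPM in the hippocampus. Kcnj3 was again lowest in every striatal library, with log2 differences of -2.47 ± 0.13 and -2.47 ± 0.13. The other G protein-gated subunits, named after their values were seen, did not share 1 order. Kcnj9 was likewise lowest in the striatum, at 31.3, 33.4 and 37.8 CPM against 178, 168 and 152 CPM in the frontal cortex and 77.8, 68.2 and 68.8 CPM in the hippocampus. Kcnj5 was low everywhere but highest in the striatum, at 2.17, 2.23 and 3.04 CPM against 0.0700, 0.228 and 0.332 CPM in the frontal cortex and 1.12, 0.787 and 1.14 CPM in the hippocampus. The log2 difference of striatum over frontal cortex was -2.28 ± 0.10 for Kcnj9 and 3.55 ± 0.40 for Kcnj5. That of Kcnj5 over the hippocampus, 1.29 ± 0.33, had an adjusted p of 0.0133 in edgeR, 0.147 with lane as a covariate and 0.0034 to 0.0482 in the other alternatives. Kcnj2, the Kir2.1 subunit of the strong rectifiers that hold striatal projection neurons at rest, was 91.5, 87.4 and 87.3 CPM in the striatum, 25.6, 22.4 and 22.4 CPM in the frontal cortex and 24.0, 16.3 and 15.5 CPM in the hippocampus. Kcnj4 was 254, 226 and 191 CPM in the striatum, 125, 145 and 153 CPM in the frontal cortex and 50.9, 67.2 and 66.4 CPM in the hippocampus. Both were highest in every striatal library, and the log2 difference of striatum over hippocampus was 2.26 ± 0.15 for Kcnj2 and 1.87 ± 0.14 for Kcnj4. Kcnj13, the channel of choroid plexus epithelium, was 28.6, 10.6 and 8.03 CPM in the WT hippocampus and 0.805, 0.495 and 0.479 CPM in the WT frontal cortex, without overlap, a log2 difference of 4.71 ± 1.56 with an adjusted p of 0.0446 in edgeR that rose to between 0.057 and 0.128 when any of 6 single WT libraries was left out and to 0.0659 with lane as a covariate, and ranged down to 0.000128 in the other alternatives. The choroid plexus markers, of which all 10 were measured, summed to 2230 to 6488 CPM in the same hippocampal libraries and 7.45 to 12.8 CPM in the frontal cortex. The part of choroid plexus tissue in the Kcnj13 level was not tested.

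Of the 2-pore domain channels, with 11 members, 2 were higher and 4 lower in the striatum than in the frontal cortex, all by at least 2-fold. Kcnk2, a mechanosensitive and lipid-sensitive leak channel named after its values were seen, was 219, 188 and 168 CPM in the striatum, 65.8, 74.5 and 60.4 CPM in the frontal cortex and 48.8, 65.0 and 50.5 CPM in the hippocampus. It was highest in every striatal library, with a log2 difference of 1.52 ± 0.14 from the frontal cortex. Kcnk4, a leak channel of the same group, was 0.735, 0.540 and 1.89 CPM in the striatum, 15.9, 15.4 and 13.7 CPM in the frontal cortex and 8.86, 8.47 and 6.99 CPM in the hippocampus, and its exons overlap those of Catsperz. The striatum was lowest in every library, with log2 differences of -3.82 ± 0.34 from the frontal cortex and -2.92 ± 0.34 from the hippocampus. Kcnk12, which assembles with Kcnk13, was 2.43, 2.99 and 2.62 CPM in the striatum, 17.7, 13.8 and 15.1 CPM in the frontal cortex and 8.12, 8.92 and 10.2 CPM in the hippocampus. Its relative Kcnk13, the main leak channel of microglia, was 18.7, 18.2 and 17.6 CPM in the striatum, 5.95, 5.40 and 5.79 CPM in the frontal cortex and 11.4, 7.38 and 11.0 CPM in the hippocampus. The pair thus had opposite orders, with log2 differences of striatum over frontal cortex of -2.53 ± 0.15 for Kcnk12 and 1.67 ± 0.16 for Kcnk13. The summed level of 10 microglial markers was 663 to 978 CPM in the WT striatum and 497 to 658 CPM in the WT frontal cortex, and its part in the Kcnk13 difference was not tested. Among the calcium- and sodium-activated channels Kcnt1 was 163, 162 and 146 CPM in the striatum, 109.9, 122 and 96.0 CPM in the frontal cortex and 22.6, 28.4 and 22.3 CPM in the hippocampus. The regions did not overlap, and the log2 difference was 2.69 ± 0.12 for striatum over hippocampus and -2.17 ± 0.12 for hippocampus over frontal cortex.

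Several leading members of other subfamilies remain. Kcnma1, the large-conductance calcium-activated channel, was 132 ± 32.1, 77.8 ± 8.93 and 114 ± 29.5 CPM (mean ± SD, n = 3) in the WT frontal cortex, striatum and hippocampus. Its brain beta subunit Kcnmb4 was 29.8 ± 0.262, 10.9 ± 1.17 and 16.7 ± 1.297 CPM, called highest in the frontal cortex and lowest in the striatum. Kcnk1 and Kcnj10 were called in no WT pair, so that the leading leak channel and the leading astrocytic channel showed no called difference between WT regions. In the mutants Kcnk1 was again called in no pair, whereas Kcnj10 was called highest in the frontal cortex. None of these leading members was called between genotypes in any region. In the frontal cortex the log2 fold change of mutant over WT was 0.16 ± 0.15 for Kcnma1, 0.03 ± 0.06 for Kcnmb4, 0.22 ± 0.11 for Kcnk1 and 0.09 ± 0.15 for Kcnj10. Over the alternatives run it was 0.00315 to 0.0645 for Kcnmb4 and 0.106 to 0.377 for Kcnk1. In the hippocampus Kcnj10 was 422, 302 and 302 CPM in the WT libraries and 246, 264 and 262 CPM in the mutant libraries, without overlap, a log2 difference of -0.43 ± 0.14. The difference was -0.25 without WT replicate 1, and the adjusted p was 0.425 in edgeR and 0.0889 to 0.919 among the alternatives. In the same libraries the astrocyte marker Aqp4, picked after its values were seen, was 256.6 to 342.9 CPM in WT and 205.5 to 231.2 CPM in mutants. The summed astrocyte markers overlapped, at 6341 to 7063 CPM in WT and 6731 to 7353 CPM in mutants. The part of astrocyte content in the Kcnj10 difference was not tested. Among the 6 members highest in the WT hippocampus, chosen for that pattern, Kcnn2, the small-conductance channel behind the afterhyperpolarisation, was 52.1 ± 7.19 CPM there against 32.6 ± 2.31 CPM in the frontal cortex and 22.05 ± 0.402 CPM in the striatum, and Kcnd3 was 119.5 ± 6.61 CPM against 98.2 ± 4.40 and 54.8 ± 7.17 CPM.

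The mutant libraries come from other animals, so the region differences could be measured a second time in mice without Pcm1. In the mutants 62 members differed between striatum and frontal cortex (54.3% of all genes were called there), 57 between hippocampus and frontal cortex (41.5%) and 63 between striatum and hippocampus (45.0%). Of the 58 members called in WT between striatum and frontal cortex 55 were called with the same sign in the mutants, 94.8% of the WT calls and 88.7% of the mutant calls (91.1% and 69.7% over all genes). The corresponding counts were 44 for hippocampus and frontal cortex (95.7% and 77.2%, with 85.8% and 61.7% over all genes) and 47 for striatum and hippocampus (100% and 74.6%, with 93.3% and 60.5% over all genes), and no member was called with opposite signs. Across the 82 genes, which are not independent replicates, the log2 differences in WT and mutant mice correlated with Pearson's r of 0.901, 0.937 and 0.876, against 0.897, 0.864 and 0.885 over all genes, and their median absolute disagreement was 0.22, 0.197 and 0.242. The 22, 14 and 6 members highest in the WT frontal cortex, striatum and hippocampus included 21, 14 and 6 that were also highest there in the mutants.

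**Figure D3:**
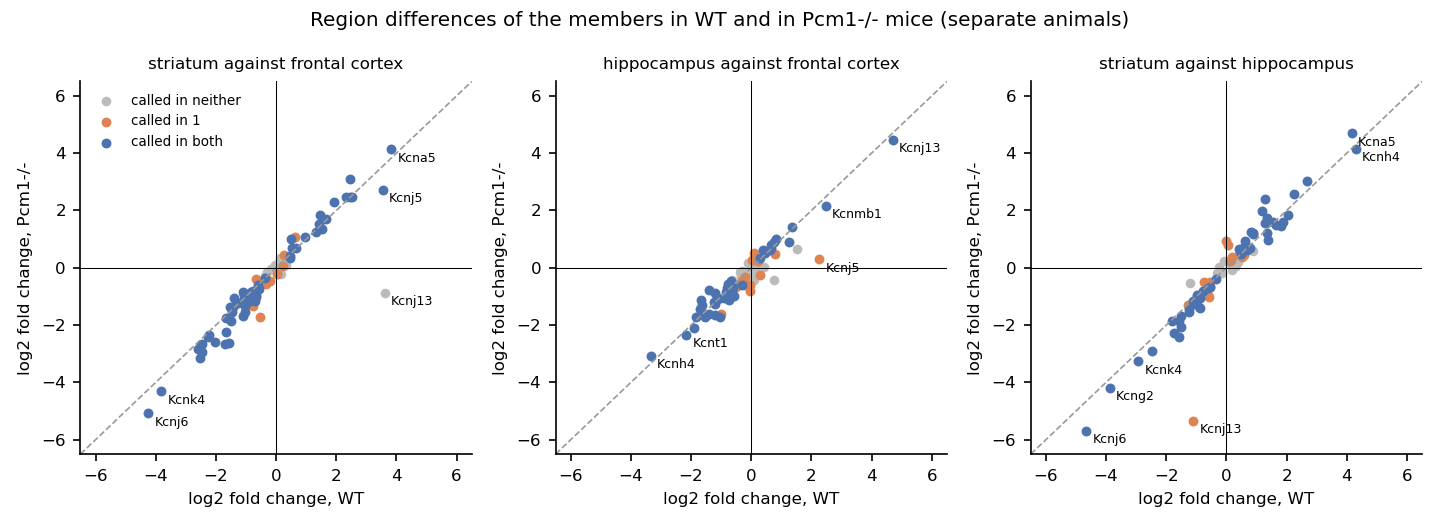
Log2 difference between 2 regions in the WT mice (horizontal axis) and in the mutants (vertical axis), 1 point for each member above 1 CPM in some group, in each of the 3 region pairs, coloured by whether the member was called in both genotypes, in 1 or in neither. Most points follow the diagonal (r = 0.901, 0.937 and 0.876 over all 82 members), Kcnj13 lies off it in both striatal panels, and no member called in both lies on opposite sides of 0.

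The effect of Pcm1 loss was then tested within each region, 3 mutant against 3 WT libraries. In the frontal cortex 6 of 82 members were called, all of them higher in the mutants, against 1.74% of all genes called in either direction. They were the voltage-gated subunits Kcna1, Kcnc1 and Kcnd2, the inward rectifiers Kcnj3 and Kcnj4 and the leak channel subunit Kcnk12, with log2 fold changes of 0.33 to 0.54. A further 17 members had an unadjusted p under 0.05, again all higher, which gave 23 higher and 0 lower where 7.84% of all genes were higher and 7.47% lower at that level. In all, 62 members had a higher fitted level in the mutants and 20 a lower one, the median log2 fold change was 0.15 over the members and -0.01 over all genes, and 24 members (29.3%) did not overlap between genotypes, where 21.3% of all genes did not.

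Kcnj3, whose exons overlap those of Gm26794 on the opposite strand, measured 178, 183 and 201 CPM in the WT libraries and 253, 237 and 244 CPM in the mutant libraries. No mutant library came below a WT library, and the log2 fold change was 0.38 ± 0.06 (SE) with an adjusted p of 0.024 in edgeR's quasi-likelihood test. Kcna1, at chr6:126640397-126646384 on the minus strand of GRCm38, gave 302, 307 and 271 CPM in the WT libraries and 383, 388 and 364 CPM in the mutant libraries. The genotypes were again apart, with a log2 fold change of 0.36 ± 0.06 and an adjusted p of 0.031 in edgeR. For Kcnd2 the values were 125, 135 and 146 CPM in the WT libraries and 177, 173 and 175 CPM in the mutant libraries. The mutant libraries lay close to each other and above every WT library, a log2 fold change of 0.36 ± 0.06 with an adjusted p of 0.0362 in edgeR. Kcnj4 stood at 125, 145 and 153 CPM in the WT libraries and 201, 193 and 179 CPM in the mutant libraries. All mutant libraries exceeded all WT libraries, by 0.43 ± 0.08 in log2 with an adjusted p of 0.0392 in edgeR.

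Kcnk12, the least abundant of the 6, had 17.7, 13.8 and 15.1 CPM in the WT libraries and 20.9, 23.7 and 23.6 CPM in the mutant libraries. The groups did not overlap, and its log2 fold change of 0.54 ± 0.10 was the largest of the 6, with an adjusted p of 0.0426 in edgeR. Kcnc1, the high-threshold channel subunit of fast-spiking interneurons, read 263, 279 and 239.8 CPM in the WT libraries and 326, 342 and 317 CPM in the mutant libraries. Again no mutant library fell below a WT library, with a log2 fold change of 0.33 ± 0.07 and an adjusted p of 0.0482 in edgeR. The members with the next smallest p, Kcna2 and Kcns1, named after their values were seen, had log2 fold changes of 0.32 ± 0.07 and 0.60 ± 0.14 with adjusted p of 0.0606 and 0.0843 in edgeR and were not called. Each was called in 4 of 13 alternatives, with adjusted p of 0.00469 to 0.255 and 0.00201 to 0.273 over edgeR and DESeq2. With sequencing lane as a covariate none of the 6 was called, with adjusted p of 0.0518 to 0.140 in edgeR, and over all alternatives run the 6 adjusted p ranged from 5.55e-05 to 0.21 and the log2 fold changes from 0.27 to 0.65. Leaving out WT replicate 1 left 1 call (Kcnk12), leaving out WT replicate 2 or any of the 3 mutant libraries left 0, and leaving out WT replicate 3 gave 15 calls.

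**Figure D4:**
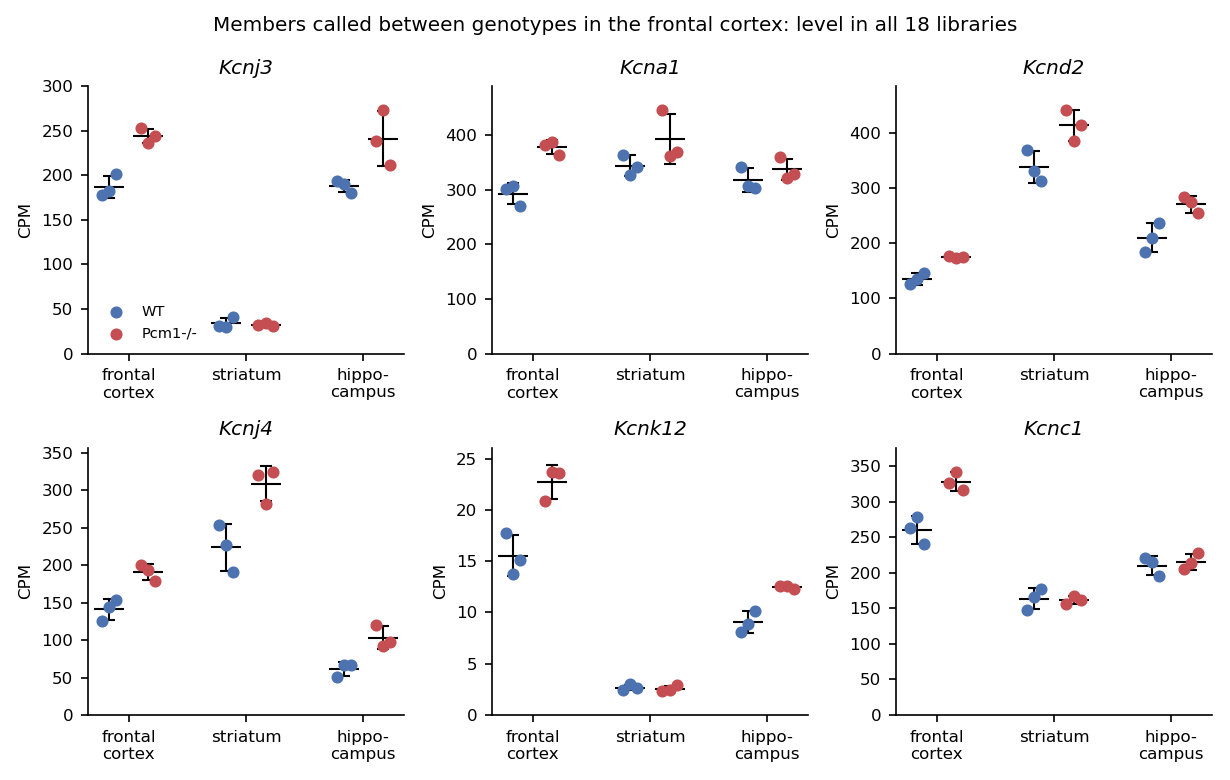
Level (CPM, vertical axis from 0) of Kcnj3, Kcna1, Kcnd2, Kcnj4, Kcnk12 and Kcnc1 in all 18 libraries, by region and genotype, with points for libraries and bars for the mean and SD of 3. In the frontal cortex the mutant points lie above all WT points in every panel, as for Kcnj3 with 178 to 201 CPM in WT and 237 to 253 CPM in mutants.

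By class, 11 of the 28 voltage-gated pore-forming subunits were higher in the mutant frontal cortex at an unadjusted p under 0.05. The median log2 fold change over the class was 0.19, and 7.84% of all genes were higher at that p. Among the silent subunits 3 of 9 passed (median 0.21), among the 2-pore domain channels 4 of 11 (0.21), among the inward rectifiers 3 of 13 (0.09), among the auxiliary subunits 1 of 13 (0.06) and among the calcium- and sodium-activated channels 1 of 8 (0.10). With 1 gene each, the auxiliary and the calcium- and sodium-activated classes cannot be set apart from the share over all genes. All medians were above 0, and that of the auxiliary subunits was the smallest. As a sum over the 82 members the mutants had 7023 to 7239 CPM and the WT libraries 6239 to 6445 CPM, 0.717% and 0.636% of counts. The summed pore-forming class was 3143 to 3246 CPM in WT and 3604 to 3687 CPM in the mutants, and the silent class 409 to 459 CPM and 497 to 517 CPM, neither with overlap. The same sums in the hippocampus did not overlap either, at 5246 to 5732 CPM in WT and 5768 to 6328 CPM in the mutants over all members. They were 2496 to 2754 and 2807 to 3004 CPM for the pore-forming class and 212 to 247 and 270.1 to 322 CPM for the silent class. In the striatum the silent class did not overlap (224 to 261 and 299.7 to 329.7 CPM), while all members (5691 to 6236 and 6109 to 6762 CPM) and the pore-forming class (2710 to 2917 and 2903 to 3339 CPM) did.

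Cell type markers also differed between the genotypes in these libraries. In the frontal cortex 10 of 10 oligodendrocyte markers had lower fitted levels in the mutants (median log2 fold change -0.22, sum 2083 to 2730 CPM in WT and 1864 to 1968 CPM in mutants), as did 10 of 10 microglial markers (-0.29, 497 to 658 and 435 to 500.2 CPM) and 9 of 10 endothelial and mural markers (-0.32, 354 to 477 and 339.7 to 351 CPM). Of the interneuron markers 8 of 10 had higher fitted levels (0.18, 879.5 to 1088 and 1084 to 1188 CPM), and of the pan-neuronal markers 6 of 10 (0.04, 11000 to 12130 and 12060 to 12490 CPM). The sums of cortical principal cell markers (6 of 10 higher, 3175 to 3262 CPM in WT and 3560 to 3762 CPM in mutants) and of striatal projection neuron markers (8 of 10 higher, 390.0 to 408 and 449.5 to 485 CPM) did not overlap between the genotypes. The microglial marker Cx3cr1 and the endothelial marker Cldn5 were at 0 in no library. The part of cell composition in the channel gene differences was not tested.

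**Figure D5:**
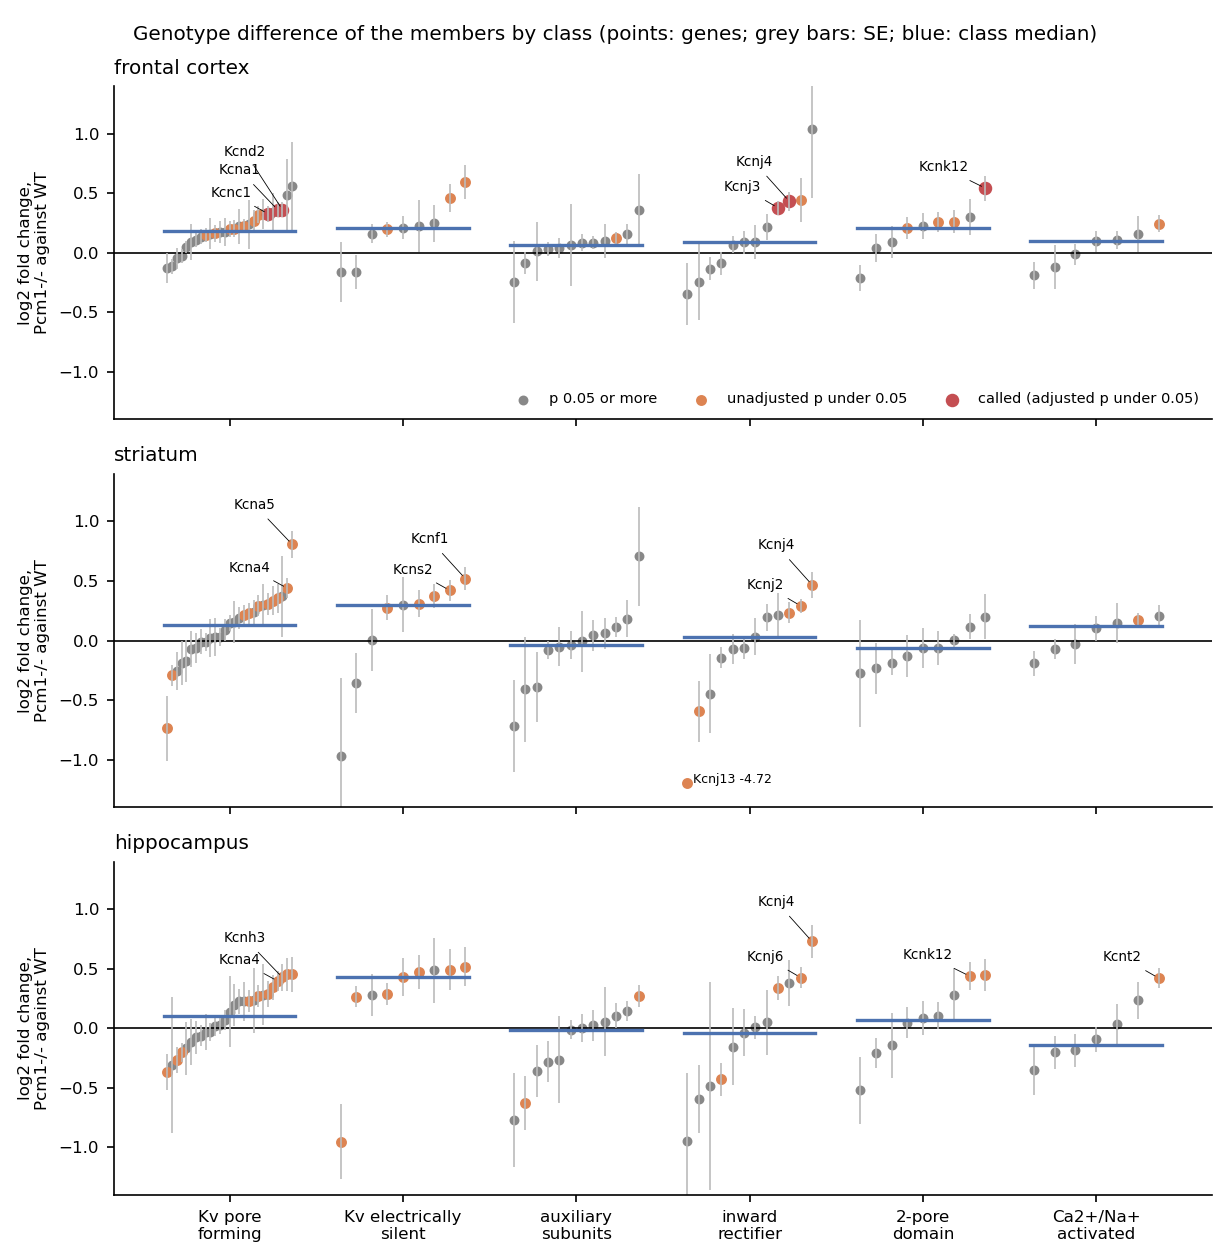
Log2 fold change, mutant over WT (vertical axis), of the 76 members above 1 CPM in some group, by class (horizontal axis) and region (panels), 1 point for each gene with its SE as a grey bar, the blue line at the class median over all members and the 6 smallest p labelled. Class medians in the frontal cortex lie between 0.06 and 0.21, and in the striatum Kcnj13 at -4.72 is drawn at the lower edge.

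In the striatum no member was called (0.0285% of all genes were) by edgeR, and 17 had an unadjusted p under 0.05 with a higher and 4 with a lower level in the mutants (6.54% and 6.98% of all genes). DESeq2 called 8 members. Its share over all genes is not given here, so this count cannot be set against a background. The genotypes did not overlap in 17 members, 20.7% against 19.0% of all genes, and the median log2 fold change over the members was 0.04. Kcna5, which was far higher in the WT striatum than in the other WT regions, had the smallest p, with 33.3, 28.1 and 28.4 CPM in the WT libraries and 60.8, 48.5 and 47.7 CPM in the mutant libraries. The mutant libraries were all above the WT libraries, a log2 fold change of 0.81 ± 0.11 with an adjusted p of 0.0921 in edgeR, 3.19e-07 in DESeq2 and up to 0.402 among the alternatives run, whose log2 fold changes ranged from 0.69 to 0.89. Kcnf1 had 66.6, 63.7 and 54.3 CPM in the WT libraries and 95.5, 78.5 and 90.3 CPM in the mutant libraries, with a log2 difference of 0.52 ± 0.10. Kcna4 had 121, 117 and 108 CPM in the WT libraries and 175, 144 and 149 CPM in the mutant libraries, with a log2 difference of 0.44 ± 0.09. Kcnj2 gave 91.5, 87.4 and 87.3 CPM in the WT libraries and 116, 102 and 107 CPM in the mutant libraries, with a log2 difference of 0.29 ± 0.06. Kcns2, another silent subunit, gave 52.9, 48.9 and 44.2 CPM in the WT libraries and 70.4, 65.5 and 59.1 CPM in the mutant libraries, with a log2 difference of 0.42 ± 0.09. None of these 4 overlapped between genotypes and none was called, with adjusted p of 0.125 to 0.146 in edgeR. Each was called in some alternative, in edgeR or DESeq2. There the adjusted p ran from 0.000835 to 0.484 for Kcnf1, 0.00158 to 0.484 for Kcna4, 0.0159 to 0.503 for Kcnj2 and 0.00645 to 0.516 for Kcns2. Silent subunits had 5 of 9 members higher at an unadjusted p under 0.05 and a class median of 0.30.

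Striatal projection neuron markers had higher fitted levels in 9 of 10 cases in the mutant striatum (median 0.26, sum 9483 to 10780 CPM in WT and 10780 to 11820 CPM in mutants), while 9 of 10 oligodendrocyte markers (-0.38, 9653 to 9879 and 5911 to 9514 CPM) and 10 of 10 microglial markers (-0.39, 663 to 978 and 596 to 690.3 CPM) had lower ones. Endothelial and mural markers were lower in 8 of 10 cases (-0.20, 386 to 417 and 349.6 to 358 CPM). Of the interneuron markers 5 had higher and 5 lower fitted levels, and their sum was higher in every mutant library (2005 to 2108 CPM in WT and 2198 to 2244 CPM in mutants). Most of that sum came from genes that striatal projection neurons express as well: mean levels in WT and mutants were 699.5 and 704.6 CPM for Gad1 and 623 and 657 CPM for Gad2. They were 268 and 345 CPM for Slc32a1 and 214 and 283 CPM for Tac1. The part of these cell types in the channel gene values was not tested. Kcnj13 was 0.110, 0.0721 and 21.6 CPM in the WT libraries and 0.143, 0.636 and 0 CPM in the mutant libraries, so that the log2 difference of -4.72 ± 1.93 rested on WT striatum replicate 3, the library with choroid plexus transcripts, and turned to 1.5 without it. The other WT values lay within the range of the mutants. Its adjusted p was 0.345 in edgeR. Among the 4 members lower at an unadjusted p under 0.05, the interneuron-enriched Kcnc2, named after its values were seen, was 31.5, 43.1 and 66.7 CPM in the WT libraries and 21.4, 35.4 and 27.6 CPM in the mutant libraries. The groups overlapped. Pvalb, a marker of fast-spiking interneurons also chosen after its values were seen, had 27.8, 45.0 and 69.4 CPM in the WT and 10.2, 46.8 and 20.6 CPM in the mutant libraries, a log2 difference of -0.86 ± 0.51 that was not called. Of the other interneuron markers Calb2 had a log2 difference of -1.09 ± 0.23 without overlap, at an adjusted p of 0.14 in edgeR, and Sst, Npy, Lhx6 and Vip had -0.01, -0.06, -0.10 and 0.22. Kcng4, Kcnab3 and Kcnip1, picked in the same way, were highest in replicate 3 among the WT and in replicate 2 among the mutant striatum libraries, as Pvalb was. The part of interneuron content in these values was not tested.

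In the hippocampus no member was called by edgeR (0.0171% of all genes were), and 21 had an unadjusted p under 0.05 with a higher and 6 with a lower level in the mutants (4.84% and 5.06% of all genes). DESeq2 called 4 members, again without its share over all genes to set beside them. There were 23 members without overlap, 28.0% against 17.1% of all genes, with a median log2 fold change of 0.04 over the members. Kcnt2, a sodium-activated channel subunit, had 29.1, 30.4 and 26.6 CPM in the WT libraries and 40.8, 39.0 and 37.0 CPM in the mutant libraries. Kcnj4 had 50.9, 67.2 and 66.4 CPM in the WT libraries and 121, 92.2 and 97.0 CPM in the mutant libraries. Kcnj6 had 46.1, 44.6 and 46.0 CPM in the WT libraries and 68.2, 57.5 and 60.1 CPM in the mutant libraries. In these 3 genes every mutant library exceeded every WT library, by 0.42 ± 0.08, 0.73 ± 0.14 and 0.43 ± 0.09 in log2. Kcna4 had 38.4, 42.1 and 37.2 CPM in the WT libraries and 54.1, 55.4 and 47.5 CPM in the mutant libraries, a log2 difference of 0.40 ± 0.08. Kcnh3 had 60.3, 83.7 and 69.4 CPM in the WT libraries and 98.3, 100.6 and 91.3 CPM in the mutant libraries, a log2 difference of 0.43 ± 0.12. Neither overlapped between genotypes, and the adjusted p of the 5 genes were 0.391 to 0.405 in edgeR. Over the alternatives, in edgeR or DESeq2, the lowest adjusted p were 0.000784 for Kcnj4, 0.0106 for Kcnt2 and Kcnj6, and 0.0197 for Kcna4. For Kcnh3 it was 0.0558, and the highest was 0.919 for each gene. Silent subunits had the most members relative to class size at an unadjusted p under 0.05 with a higher level, 6 of 9, and a class median of 0.43. In the same libraries 9 of 10 oligodendrocyte markers (median -0.50, sum 5126 to 10120 CPM in WT and 3890 to 6356 CPM in mutants) and 10 of 10 endothelial and mural markers (-0.42, 339.6 to 425 and 284 to 322 CPM) had lower fitted levels in the mutants, as did 10 of 10 microglial markers (-0.23, 520 to 797 and 489 to 568 CPM). Cortical principal cell markers had higher fitted levels in 6 of 10 cases (0.10, 1838 to 2403 and 2387 to 2962 CPM). The part of these cell types was not tested.

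Side by side, the 6 members called in the frontal cortex had unequal values in the other regions, each comparison with its own libraries. Kcnj4 had log2 fold changes of 0.43, 0.47 and 0.73 in frontal cortex, striatum and hippocampus. In the same order Kcnd2 had 0.36, 0.29 and 0.34, close to the same value in each. Kcnj3 had 0.38, -0.07 and 0.34, and Kcnk12 had 0.54, -0.07 and 0.44, both near 0 in the striatum. Kcna1 had 0.36, 0.19 and 0.07, and Kcnc1 had 0.33, -0.01 and 0.02. With single libraries left out Kcna1 ran from 0.092 to 0.243 in the striatum and from 0.0071 to 0.127 in the hippocampus. Each was lowest without mutant replicate 1 of its region. Over the 82 members 25 had a higher fitted level in the mutants in all 3 regions and 6 a lower one, where 23.3% of all genes were higher and 24.9% lower in all 3. For the direction of values near 0, single libraries decided: that of Kcnc1 in the striatum and hippocampus and those of Kcnj3 and Kcnk12 in the striatum turned when 1 library was left out. Kcna4, Kcnd2, Kcnh1, Kcnj4, Kcns1, Kcns2 and Kcnv1 had an unadjusted p under 0.05 with a higher level in each region, as did 1.45% of all genes. The first 6 did not overlap between genotypes in any region, as held for 2.42% of all genes, while Kcna6 and Kcnc2 had a higher level at that p in the frontal cortex and a lower one in the other regions. Their log2 fold changes in the order used above were 0.16, -0.29 and -0.27 for Kcna6 and 0.22, -0.74 and -0.20 for Kcnc2. The striatal value of Kcnc2 ranged from -0.96 to -0.40 over the alternatives run, and was -0.40 without WT striatum replicate 3. These genes were picked for that pattern after their values were seen, and it is given as a description.

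Whether the genotype effect differs between regions was tested directly with the interaction of genotype and region over all 18 libraries. No member was called by edgeR (0.0114% of all genes were), 11 had an unadjusted p under 0.05 (5.54% of all genes), and DESeq2 called 1. The smallest p belonged to Kcnj6, at an adjusted p of 0.398 in edgeR and 0.0327 in DESeq2, with the other alternatives at up to 0.898. Its values were 30.4, 31.9 and 40.7 CPM in the WT and 40.9, 37.95 and 41.5 CPM in the mutant frontal cortex, and 1.47, 1.84 and 2.09 CPM and 0.964, 1.02 and 1.59 CPM in the striatum. With the hippocampal values given above, Kcnj6 was higher in every mutant than in every WT library of the hippocampus, and the genotypes overlapped in the other regions. Next came Kcna6 and Kcnk12, with adjusted p of 0.575 and 0.588 in edgeR. The different numbers of calls in the 3 regions are therefore not shown to be differences between regions for any member by edgeR.

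Potassium channels work with proteins outside the Kcn family, such as anchoring proteins, calmodulins and the dipeptidyl peptidase-like subunits of Kcnd channels. Of 32 such partner genes 8 were higher and 2 lower in the mutant frontal cortex at an unadjusted p under 0.05, where 7.84% and 7.47% of all genes were, and the median log2 fold change was 0.04. In the striatum the counts at that level were 4 higher and 2 lower (6.54% and 6.98% of all genes), and in the hippocampus 4 and 1 (4.84% and 5.06%), with medians of 0.04 and 0.06. Between regions in the WT mice 11 partners were called higher and 10 lower in striatum than frontal cortex (20.6% and 20.9% of all genes), 4 and 14 in hippocampus than frontal cortex (14.5% and 15.3%), and 12 and 9 in striatum than hippocampus (14.4% and 14.8%).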

How the data were processed

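RNA was taken from snap-frozen frontal cortex, striatum and hippocampus of 3 Pcm1-/- mice and 3 WT littermates in each region, and libraries were made with a stranded mRNA kit. The authors trimmed reads with Trim Galore and cutadapt, kept those of at least 20 bases, aligned them to GRCm38 with STAR, kept unique alignments and counted them per gene with HTSeq, and the deposited values are these raw read counts. The strand setting of the counting is not given in the sources used here, so genes with overlapping exons on either strand can share reads. The 5 HTSeq tally lines were left out, and 10.8% to 13.2% of the tallied reads in a library fell on no gene.

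Groups came from the sample labels. Genes that reached 10 counts in any library were kept (17545 of 38561), and TMM factors and the quasi-likelihood test of edgeR 4.0.16 (R 4.3.3, limma 3.58.1) were used, with Benjamini-Hochberg adjustment over all 17545 genes and a threshold of 0.05. Each region was fitted alone for genotype, each genotype alone for regions, and all 18 libraries together for the interaction. SE is the size of the log2 fold change over the root of F. Alternatives were DESeq2 1.42.0, its size factors in edgeR, other count filters, a replicate or animal block, lane, a fit of all 18 libraries, another gene length and leaving out each library. Exon lengths and gene positions came from GENCODE M21 (GRCm38), promoters from RefSeq. Each fit was also tried on a single simulated data set without lane or animal effects. The share of false calls there was above the nominal one, most in the frontal cortex genotype fit. A single draw cannot show whether such an excess is general, and calls near the threshold are to be read with care. Plots were drawn with Python 3.11.15 and matplotlib 3.10.9.

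The members, gene lists and rules were chosen with earlier results of these data known. Named were members called between genotypes and the 5 with the smallest p in each region, the 6 largest called differences without overlap in each direction between WT regions, the 3 smallest interaction p, and the leading member of each subfamily by level per kb. Replicates of a group carry different animal codes, and p-values measure the spread between these animals. The 3 regions came from the same animals: libraries of 1 animal deviated together from their group means (mean r from 0.17 to 0.453 over the region pairs). Same-numbered WT and mutant libraries had a mean r of 0.337 in the hippocampus and 0.241 in the frontal cortex. For pairs with different numbers the means were -0.164 and -0.122. In the striatum the means were -0.0737 for equal and 0.0449 for different numbers. The hippocampal WT replicate 1 had a higher r with mutant replicate 3 (0.311) than with mutant replicate 1 (0.124). Protein sequences were not used here, and a few genes are not reported here.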

Additional observations from a re-analysis of the deposited data

How the results depend on the processing

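The frontal cortex count of 6 called members became 10 with DESeq2, 11 with the replicate block, 3 in the fit of all 18 libraries and 0 with lane as a covariate, and ranged from 0 to 15 when single libraries were left out. The all-gene count ranged from 11 to 825 with single libraries left out. In the striatum the count of 0 became 8 with DESeq2, 2 without a filter on low counts and 1 in the fit of all 18 libraries, and in the hippocampus 4 with DESeq2 and 2 in that fit. The interaction count of 0 became 1 with DESeq2. All-gene counts for DESeq2, the blocks, the filters and the fit of all 18 libraries are not given here. The member counts in these alternatives therefore cannot be set against a background. The causes of these changes were not tested. By their labels, same-numbered WT and mutant libraries share only a number in each region. Their r ran from -0.346 to 0.276 in the striatum, 0.0308 to 0.373 in the frontal cortex and 0.124 to 0.609 in the hippocampus. The WT striatum numbers also run in another order of animal codes than in the other regions. In that other order the striatal pairs had r of 0.351, 0.0827 and 0.474, and no block was fitted on it. With a replicate block 0 members were called in either of the other regions, the hippocampus and the striatum, and an animal block gave 60, 50 and 52 calls in the WT and 63, 58 and 63 in the mutant region comparisons. The region counts stayed within 1.5 times of their values in every alternative run, and with single libraries left out they were 52 to 60, 39 to 47 and 44 to 54 in WT and 58 to 63, 50 to 60 and 55 to 61 in the mutants. Over all genes the counts with single libraries left out were 5877 to 7604, 3722 to 5430 and 4016 to 5153 in WT. In the mutants the all-gene counts were 8220 to 10388, 5737 to 8072 and 6758 to 8183. The naming rule picked log2 differences for a small p or a large size in these data, so few of them could change sign. None of the 52 log2 differences chosen by the naming rule changed sign in an alternative run. Among the other values printed 7 did: the frontal cortex fold change of Kcnma1 was -0.015 with lane as a covariate, and with single libraries left out the ranges were -0.083 to 0.23 for Kcnj10 in the frontal cortex, -6.6 to 1.5 for Kcnj13, -0.16 to 0.097 for Kcnj3, -0.16 to 0.021 for Kcnk12 and -0.079 to 0.045 for Kcnc1 in the striatum, and -0.041 to 0.052 for Kcnc1 in the hippocampus. Lane as a covariate was not run in the striatum, where it cannot be told apart from genotype.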
